A study of Mus musculus with 12 samples.

Results

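Of the 982 genes in the deposited table, 115 named genes had every one of their 9 Resf1 knockout (KO) values above every one of their 3 control values. These genes are described here. They were selected on exactly those measured values: the lowest of the libraries of the lines sg1, sg2 and sg3 had to exceed the highest sgControl library. Genes without a symbol, genes on chromosome 15, predicted genes with Gm or Rik symbols, and zinc finger, solute carrier, transporter, ion channel, ribosomal protein and translation factor families named by their symbols were set aside, which left 746 genes open to the rule. The difference from sgControl is therefore a property of the selection and is given as a description, without a test. The rule did not compare the 3 KO lines with each other, and the differences among them were tested, but it removed genes in which any line was near or below control, so counts of such differences over the 115 genes are a description.

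The libraries came from cultured 6DT1 cells, which were established from a mammary tumour of an MMTV-Myc mouse on the FVB/NJ strain. Resf1, which encodes retroelement silencing factor 1, was targeted with CRISPR-Cas9 by 1 of 3 guides to different stretches of its largest exon (lines sg1, sg2 and sg3, labelled Resf1 KO), and the control line (sgControl, labelled wild type) carried a scrambled guide. The lines were made with a lentiviral guide and Cas9 vector carrying GFP per the methods of the study. The labels give medium with puromycin for all 12 samples, but their treatment text describes a knockdown of the human gene and not these lines, so the selection of these lines is uncertain. RNA was taken from 3 dishes per line, 12 libraries in all. The edited lines were grown from single sorted cells per the methods of the study, so that each line is 1 clone, the guide cannot be told apart from the clone that carries it, and the p-values below measure the spread among dishes of a line. Resf1 itself was not analysed here, and the genotypes could not be checked on it.

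RESF1 is a nuclear protein known from mouse embryonic stem cells, where it helps the histone methyltransferase SETDB1 to keep endogenous retroviruses and nearby genes silent. SETDB1 methylates histone H3 at these elements, a mark of closed chromatin. The genes above control fell into many functional classes, among them integrins and other matrix proteins, inflammatory caspases, lipoprotein receptors, regulators of small GTPases and kinases.

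The epithelial keratins Krt8 and Krt18 were expressed in each library, between 4282 (Krt18, sg3 replicate 1) and 14087 (Krt8, sg1 replicate 2). Of the 25 luminal epithelial markers looked for, these and Krt19 and Cgn (cingulin, a tight junction protein) were the 4 in the table, all of them outside the 115 and all called apart among the lines. Krt8 differed from sgControl by 1.10, -0.047 and -0.22 (log2, in sg1, sg2 and sg3) and Krt18 by 0.80, -0.019 and -0.33. Krt19 was at 511, 423 and 551 in sgControl, 647, 678 and 543 in sg1, 419, 421 and 365 in sg2 and 168, 218 and 161 in sg3, with differences of 0.33, -0.29 and -1.44. Cgn was at 39.3, 50.8 and 44.8 in sgControl, 103, 110.2 and 90.1 in sg1, 25.1, 23.9 and 19.17 in sg2 and 4.66, 2.88 and 2.74 in sg3, with differences of 1.16, -0.96 and -3.40. All 4 were highest in sg1 and lowest in sg3, where Cgn was close to 0, and the part of this marker difference in the results below was not tested. None of the 13 myoepithelial, 10 fibroblast and 7 endothelial markers was in the table, and of the 15 immune markers only Cd68 was. Cd68 was at 147, 102 and 154 in sgControl, 283, 327 and 305 in sg1, 169, 159 and 154 in sg2 and 139, 146 and 159 in sg3. The table summed to 2069298 to 2713951 normalised counts per library, which is not the sequencing depth, and the depth is unknown here. Each value is a normalised count, that is, an estimated gene count divided by the size factor of its library.

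Before any exclusion, 145 of the 982 genes (14.8%) were above sgControl in all 9 KO libraries, and the 115 were 15.4% of the 746 genes open to the rule. The opposite pattern, all 9 libraries below sgControl, was shown by 113 of those 746 genes. Of the 115 genes, 111 were protein coding and 4 were noncoding transcripts. The mean of the 3 lines exceeded sgControl by a median of 0.39 on the log2 scale (1.31-fold; range 0.13 to 2.12), against a median of 0.14 over the table. In 39 genes the mean difference was below 1.2-fold, in 40 it was 1.2- to 1.5-fold, in 15 it was 1.5- to 2-fold and in 21 it reached 2-fold. Most were therefore small. The median differences of sg1, sg2 and sg3 were 0.42, 0.34 and 0.31 (log2), beside table medians of 0.20, -0.017 and -0.027. The median SD between dishes of a line was 0.069 to 0.088 (log2) for these genes. Below, folds are ratios of line means, groups of 3 values in parentheses are log2 differences of sg1, sg2 and sg3 from sgControl, and genes are called apart at an adjusted p of at most 0.05 (limma, n = 3 libraries a line).

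The margin by which genes met the rule was often narrow. In 47 genes the lowest KO library was within 0.05 (log2) of the highest control, and in 10 it was at least 0.5 above. Lrp1 was closest to the limit from inside, with 11423 in its lowest KO library (sg2 replicate 1) beside 11416 in its highest control. Pip4k2a (655 beside 654), Arhgap27, Sdccag8 and Apobr followed. Just outside were Spaca6, with 906 in its lowest KO library beside 907 in its highest control, then Pld1, Il12rb1, Chst11 and Tmem132a, and 66 open genes missed by less than 0.05.

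Membership also depended on how the libraries were scaled to each other. When the libraries were rescaled by median ratios over the deposited genes, which lowered all genes by a median of 0.15, 0.042 and 0.0078 (log2) in lines sg1, sg2 and sg3, 64 genes met the rule and 61 of the 115 were among them. When they were rescaled to the table total, which lowered all genes by 0.21, 0.20 and 0.10, 25 genes met it, all among the 115. Those 25 met the rule under each of the 3 scalings, among them AC120164.1, Adora1, Arhgef10, Casp1, Casp12, Cd28, Cln8, Col6a3, Filip1, Fyn, Hist2h3c1, Lypd1, Mcpt8, Mctp1, Mcub, Mdfi, Neurl1b, Pparg, Ramp3, Rnf227, Slfn8, Spns2, Tnfrsf23 and Vldlr. Of these, 17 were at least 2-fold above sgControl in the mean of the lines. In the other direction, 7 of the 115 were below sgControl in at least 1 line after median-ratio rescaling and 40 after rescaling to the total. The table is a selected list of genes, so no scaling could be checked within it.

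**Figure D1:**
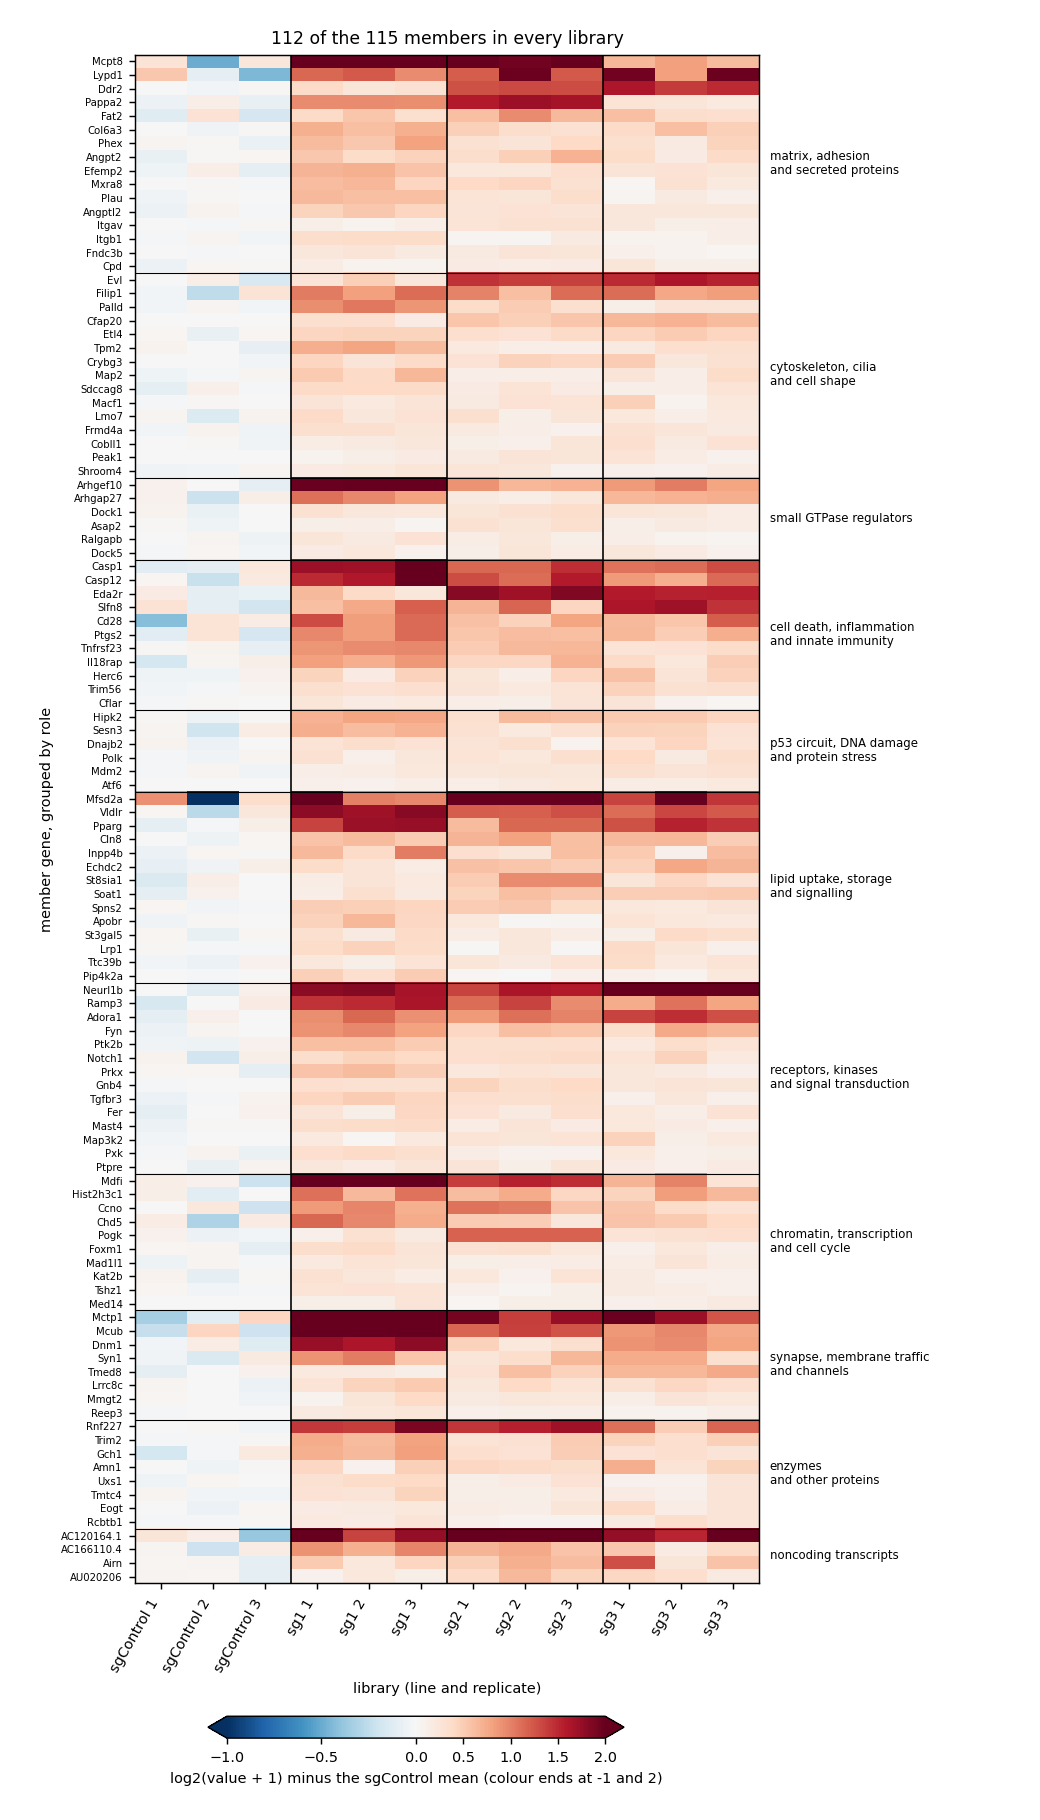
The values of 112 of the 115 genes (rows, grouped by role) in the 12 libraries (columns), coloured by log2(value + 1) minus the sgControl mean of the gene, with the colour scale ending at -1 and 2. All KO columns are above each gene's control columns by selection; what varies is the depth of the colour, which is pale for most rows and differs between the 3 lines in Ddr2, Eda2r, Evl, Pappa2, Pogk and Arhgef10.

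Upstream sequences of members with large differences from sgControl are shown because the study asked how the RESF1 protein relates to G-quadruplex DNA, a structure folded from 4 runs of guanines. RefSeq (GRCm38.p6) gave 129 promoters for 88 of the 115 genes, and the 250 bases before each start were searched on both strands. A G-quadruplex pattern, 4 runs of at least 3 G with 1 to 7 bases between runs, was found in 27.9% of these promoters, in 26.5% of the promoters of all genes open to the rule and in 16.7% of all 32851 promoters of that length. The GC box GGGCGG was found in 51.2%, 54.2% and 32.7%, the TATA box TATAAA in 9.30%, 7.94% and 12.4%, the E-box CACGTG in 7.75%, 8.83% and 6.02%, the AP-1 site TGANTCA in 6.20%, 6.91% and 6.75%, and the NF-Y site CCAAT in 27.9%, 32.8% and 33.8%. The CRE site TGACGTCA was found in 2.33%, 1.54% and 1.55%, and the CArG core bound by SRF in 0%, 0% and 0.061%. For the G-quadruplex pattern the share among members was thus near that of all genes open to the rule. These matches are of letters only and say nothing of binding. The study proposes that RESF1 lies mainly at quadruplexes of transcribed sequences, and not at those of control elements. Many of its predicted quadruplexes also had fewer stacked guanine layers than the pattern used here asks for. The upstream window and pattern searched here do not cover these, so the shares do not bear on that proposal. The promoters of 4 members with 1 RefSeq start and large differences follow, 5′ to 3′ on the strand of the gene, with motifs in capitals. They are chr17:26414609-26414858 (plus strand, Neurl1b), chr9:5298267-5298516 (plus strand, Casp1), chr13:76579347-76579596 (plus strand, Mctp1) and chr3:129970207-129970456 (minus strand, Mcub).
Neurl1b: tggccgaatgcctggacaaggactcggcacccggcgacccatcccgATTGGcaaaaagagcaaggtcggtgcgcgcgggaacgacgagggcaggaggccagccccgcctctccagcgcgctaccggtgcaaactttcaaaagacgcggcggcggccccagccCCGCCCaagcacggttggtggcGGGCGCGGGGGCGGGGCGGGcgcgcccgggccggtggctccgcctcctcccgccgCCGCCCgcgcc
Casp1: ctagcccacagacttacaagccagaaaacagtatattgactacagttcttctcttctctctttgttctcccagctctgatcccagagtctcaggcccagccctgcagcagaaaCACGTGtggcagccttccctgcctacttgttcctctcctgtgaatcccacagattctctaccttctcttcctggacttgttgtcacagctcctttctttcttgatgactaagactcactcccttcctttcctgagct
Mctp1: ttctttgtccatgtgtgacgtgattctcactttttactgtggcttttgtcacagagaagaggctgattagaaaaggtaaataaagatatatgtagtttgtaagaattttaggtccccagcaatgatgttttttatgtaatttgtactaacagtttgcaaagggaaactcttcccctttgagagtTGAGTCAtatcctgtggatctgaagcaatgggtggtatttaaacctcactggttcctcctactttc
Mcub: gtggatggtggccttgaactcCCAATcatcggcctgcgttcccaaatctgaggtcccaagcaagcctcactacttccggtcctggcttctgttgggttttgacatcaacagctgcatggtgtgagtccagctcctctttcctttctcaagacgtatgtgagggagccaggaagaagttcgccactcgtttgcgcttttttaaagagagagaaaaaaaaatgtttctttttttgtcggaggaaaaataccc
In Neurl1b the capitals mark an NF-Y site, GC boxes and the G-quadruplex pattern, which overlaps 1 of them. In Casp1 they mark the E-box, in Mctp1 an AP-1 site and in Mcub an NF-Y site. Of these 4, only Neurl1b held the G-quadruplex pattern in this window.

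Matrix, adhesion and secreted proteins made up 16 of the 115 genes (the role groups were drawn up after the values were seen), with a median difference of 0.41 (log2) from sgControl. They included subunits of receptors that bind the matrix. Itgb1, the integrin beta 1 chain and the member with the highest level per kb of transcript, was at 14328, 15038 and 14317 in sgControl, 18547, 18718 and 18682 in sg1, 15124, 15155 and 16465 in sg2 and 15362, 15237 and 16003 in sg3 (normalised counts). The sg1 libraries stood well above, while those of sg2 and sg3 lay just above the controls. Its sg1 level exceeded sg2 by 0.26 (log2; adjusted p = 1.8e-04, limma). Itgav, the integrin alpha V chain, was at 6600.3, 6480.1 and 6679 in sgControl, 7152, 6926 and 7241 in sg1, 7959.5, 8102 and 8139 in sg2 and 7738, 7169.6 and 7244 in sg3. Here sg2 was highest, and its libraries did not overlap those of sg1 (adjusted p = 0.0037 among lines, and 0.099 after rescaling to the total). Both integrins were below sgControl in at least 1 line after rescaling to the total, as were Fndc3b and Cpd.

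Ddr2, a receptor tyrosine kinase for fibrillar collagen, had the smallest p among the lines of all members. Its values were 1697, 1663 and 1725 in sgControl, 2217, 1996 and 2097 in sg1, 4114, 4250.2 and 4207 in sg2 and 5190.4, 4463 and 4759 in sg3. The sg2 and sg3 libraries were more than 2-fold above control and the sg1 libraries only slightly, with no overlap between sg1 and the other two (1.24, 2.47 and 2.83-fold over sgControl in sg1, sg2 and sg3; adjusted p = 4.7e-12 among lines). Pappa2, a metalloproteinase that cleaves insulin-like growth factor binding proteins, was at 241, 275 and 238 in sgControl, 483, 485 and 477 in sg1, 751, 821 and 800.0 in sg2 and 303, 297 and 286 in sg3. All 3 lines were apart from each other, in the order sg2, sg1, sg3 (1.92, 3.15 and 1.18-fold in sg1, sg2 and sg3; adjusted p = 5.5e-11). Mcpt8, a serine protease of basophil granules, was low throughout, at 6.88, 3.63 and 6.67 in sgControl, 36.2, 29.1 and 39.8 in sg1, 28.2, 23.9 and 28.8 in sg2 and 9.31, 10.6 and 9.12 in sg3. The sg1 and sg2 libraries were not called apart, and sg3 was below both (adjusted p = 6.1e-05 and 0.0014). Lypd1, a membrane-anchored protein of the Ly6 family, was likewise low, at 10.99, 6.78 and 5.04 in sgControl, 17.3, 18.4 and 14.9 in sg1, 18.1, 31.2 and 18.4 in sg2 and 30.4, 13.5 and 31.2 in sg3, and its lines were not called apart (adjusted p = 0.47). Col6a3, a chain of collagen VI, was at 391, 378 and 396 in sgControl, 633, 591 and 634 in sg1, 543, 498 and 478 in sg2 and 509, 591 and 541 in sg3. It was highest in sg1, 0.29 (log2) over sg2 and 0.18 over sg3, a difference that was no longer called among lines after median-ratio rescaling (adjusted p = 0.056).

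Plau, the urokinase plasminogen activator, which starts the plasmin cascade at the cell surface, was at 3536, 3695 and 3639.8 in sgControl, 5659, 5514 and 5479 in sg1, 4370.2, 4308 and 4639.8 in sg2 and 3771, 4083 and 3899.7 in sg3. Its lines were ordered sg1, sg2, sg3 without overlap, each pair being called (adjusted p = 1.1e-05, 4.9e-08 and 0.0065 for sg1 against sg2, sg1 against sg3 and sg3 against sg2). Angptl2, a secreted angiopoietin-like protein, was at 2917, 3186 and 2999 in sgControl, 4111, 4389 and 4096 in sg1, 3616, 3707 and 3626 in sg2 and 3546, 3541 and 3536 in sg3. Again the sg1 libraries were highest, and sg2 and sg3 were not called apart. That order was not called after either rescaling (adjusted p = 0.13 and 0.14). The remaining members of the group were Fat2, Phex, Angpt2, Efemp2, Mxra8, Fndc3b and Cpd. Their mean differences lay between 0.14 (Cpd) and 0.53 (Fat2, an atypical cadherin).

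**Figure D2:**
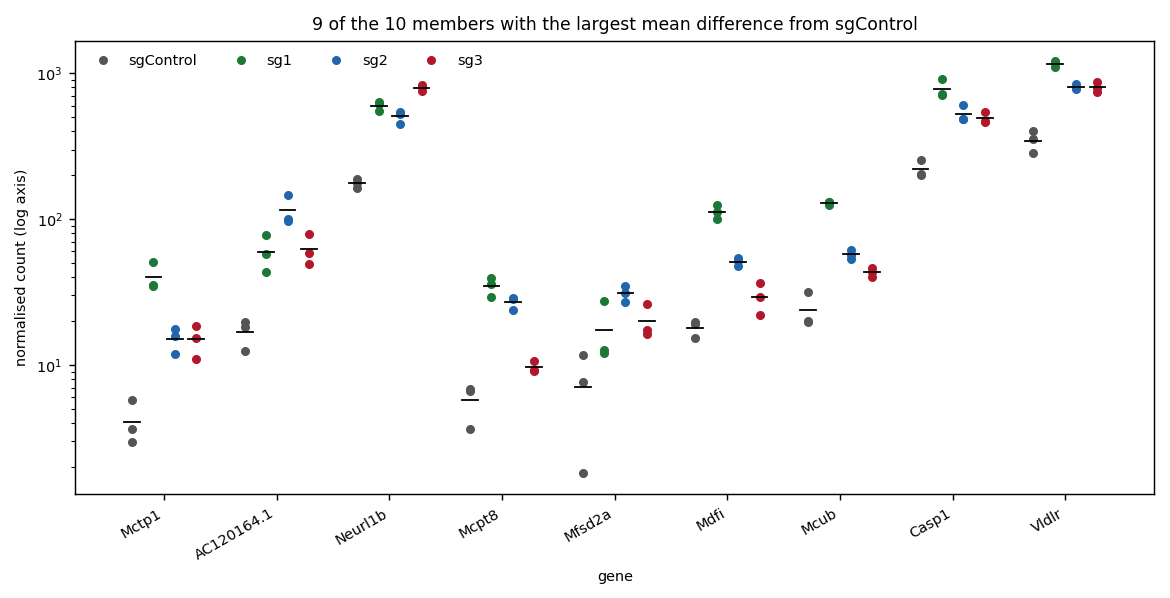
Normalised counts (log axis) of 9 of the 10 members with the largest mean difference from sgControl, each point 1 library, bars the means of 3 libraries and colours the lines. Mctp1, Mdfi and Mcub are highest in sg1, Neurl1b in sg3, and the control libraries of Mfsd2a spread over the widest range.

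The cytoskeletal group was the largest, with 17 genes and a median difference of 0.30 (log2). Evl, an Ena/VASP protein that promotes actin filament growth, was at 163, 179 and 146 in sgControl, 194, 226 and 189 in sg1, 443, 422 and 421 in sg2 and 457, 501 and 471 in sg3. As for Ddr2, sg2 and sg3 were far above control and sg1 slightly (1.25, 2.64 and 2.93-fold; adjusted p = 3.4e-09 among lines). Palladin, an actin bundling protein encoded by Palld, and the muscle-type tropomyosin Tpm2 showed the reverse. Tpm2 was at 1242, 1184 and 1113 in sgControl, 1953, 2038 and 1836 in sg1, 1356, 1286 and 1293 in sg2 and 1328, 1485 and 1464 in sg3. Its sg1 libraries were above all others, by 0.57 (log2) over sg2, and after rescaling to the total it was below sgControl in at least 1 line. Palld was called in each pair, with differences from sgControl of 0.96, 0.40 and 0.21 (log2) in sg1, sg2 and sg3. Cfap20, a component of ciliary axonemes, was lowest in sg1 (0.27, 0.53 and 0.66).

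Filip1, which binds filamin A, was at 131, 112 and 161 in sgControl, 275, 237 and 291 in sg1, 265, 201 and 290.2 in sg2 and 289, 228 and 238 in sg3. The lines reached nearly the same level, and the differences between them were 0.10 for sg1 minus sg2 (95% interval -0.22 to 0.42, log2) and 0.090 for sg1 minus sg3 (95% interval -0.23 to 0.41). Macf1, a giant crosslinker of microtubules and actin, was at 7989, 8256 and 8056 in sgControl, 9665, 9307 and 9687 in sg1, 9214, 9868 and 9745 in sg2 and 11221, 8467 and 9330.4 in sg3. The range over the 3 lines was 0.0083 (log2), the smallest of the members with the deposited scaling, although the dishes of sg3 themselves spread from 8467 to 11221, so that sg1 minus sg3 had a 95% interval of -0.16 to 0.14. After median-ratio rescaling Macf1 differed from sgControl by 0.084, 0.20 and 0.24 in sg1, sg2 and sg3, and it did not meet the rule after either rescaling. Crybg3 (0.36, 0.39 and 0.35), Etl4 (0.44, 0.34 and 0.46), Lmo7 (0.30, 0.22 and 0.18), Cobll1 (0.19, 0.16 and 0.27), Peak1 (0.12, 0.22 and 0.17) and Shroom4 (0.20, 0.18 and 0.11) were not called apart either. Map2 and Sdccag8 were called higher in sg1 than in both other lines, and Frmd4a also belonged to the group. Of the 17 genes, 8 were below sgControl in a line after rescaling to the total (among them Cobll1, Frmd4a, Map2, Peak1, Sdccag8, Shroom4 and Tpm2).

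Of the 6 regulators of small GTPases, Arhgef10 had by far the greatest difference. This guanine nucleotide exchange factor was at 175, 165 and 154 in sgControl, 653, 688 and 666 in sg1, 307, 262 and 268 in sg2 and 298, 336 and 286 in sg3. The sg1 libraries formed a level of their own, about 4-fold over control, with sg2 and sg3 together below (4.06, 1.69 and 1.86-fold; sg1 over sg2 by 1.26 log2, 95% interval 1.07 to 1.45, adjusted p = 1.4e-09; sg3 against sg2 adjusted p = 0.32). Arhgap27, a GTPase-activating protein, was at 111, 89.8 and 115 in sgControl, 226, 206 and 183 in sg1, 118, 115 and 123 in sg2 and 166, 170.4 and 174 in sg3. It met the rule in sg2 by a narrow margin and was well above control in sg1 and sg3. The Rac activators Dock1 and Dock5 showed small and even differences. Dock1 was at 2089.8, 1890.1 and 1978 in sgControl, 2461, 2317 and 2285 in sg1, 2344, 2448 and 2541 in sg2 and 2336, 2333 and 2197 in sg3. Dock5 was at 3782, 3947 and 3745 in sgControl, 4283, 4429.9 and 4079 in sg1, 4166, 4513 and 4243 in sg2 and 4471, 4281 and 4055 in sg3. In Dock5 the range over the lines was 0.015 (log2; sg1 minus sg2 95% interval -0.12 to 0.10). After median-ratio rescaling both were called apart (adjusted p = 0.038 for Dock1 and 0.041 for Dock5). Asap2, which acts on Arf GTPases, was at 1789, 1708 and 1770.5 in sgControl, 1904, 1931 and 1818 in sg1, 2171, 2068 and 2201 in sg2 and 1900.3, 1982 and 1951 in sg3, highest in sg2 (adjusted p = 0.0055 among lines, and 0.12 after rescaling to the total). Ralgapb, a subunit of the Ral GTPase-activating complex, was also near control (0.24, 0.16 and 0.089). Arhgap27, Asap2, Dock5 and Ralgapb were below sgControl in at least 1 line after rescaling to the total.

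The 11 genes of cell death, inflammation and innate immunity had the largest median difference of any role group, 0.73 (log2). Casp1, the protease that matures interleukin 1 beta in inflammasomes, was at 201, 203 and 253 in sgControl, 719, 709.9 and 909 in sg1, 484, 486 and 608 in sg2 and 466, 472 and 542 in sg3. The lowest KO library was at 466 and the highest control at 253. It was 3.56, 2.40 and 2.25-fold over sgControl in sg1, sg2 and sg3, with sg1 above the other two (adjusted p = 3.9e-04 and 8.7e-05) and sg2 and sg3 not called apart. Its paralogue Casp12, on the same chromosome with 1 protein-coding gene between them, differed from sgControl by 1.71, 1.33 and 0.90 (log2) and was likewise highest in sg1. Eda2r, a TNF family receptor for ectodysplasin A2 and a known p53 target, was at 108, 89.8 and 91.5 in sgControl, 152, 126 and 113 in sg1, 343, 313 and 348 in sg2 and 292, 281 and 286 in sg3. The sg1 libraries did not overlap those of the other lines, and sg2 and sg3 were about 3-fold over control (1.35, 3.47 and 2.97-fold; adjusted p = 2.0e-08 among lines). It did not meet the rule after either rescaling, with sg1 at 0.27 and 0.21 (log2) over sgControl. Ptgs2, the inducible cyclooxygenase of prostaglandin synthesis, was at 786, 1021 and 751 in sgControl, 1648, 1506 and 1859.6 in sg1, 1243, 1299 and 1287 in sg2 and 1339.7, 1192 and 1405 in sg3. It was highest in sg1 (adjusted p = 0.0042 among lines, and 0.061 after median-ratio rescaling).

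Cd28, a costimulatory receptor known from T cells, was at 26.5, 43.5 and 40.04 in sgControl, 90.4, 64.97 and 79.6 in sg1, 54.3, 49.8 and 62.7 in sg2 and 57.03, 52.9 and 84.9 in sg3. The sg3 libraries overlapped those of both other lines, and no pair was called (adjusted p = 0.16 among lines). Herc6, an interferon-inducible ubiquitin ligase, was at 296, 296 and 323 in sgControl, 417, 342 and 419 in sg1, 362, 333 and 409.6 in sg2 and 459, 365 and 419 in sg3. Trim56, a ligase of antiviral signalling, was at 1551, 1567 and 1638 in sgControl, 1989.5, 1941 and 1998 in sg1, 1888, 1818 and 1916 in sg2 and 2173, 1966 and 1989 in sg3. Both differed little among the lines (adjusted p = 0.33 and 0.11), but Trim56 was called after median-ratio rescaling (adjusted p = 0.0089). Tnfrsf23, a decoy receptor of the TNF family, fell into 3 separate levels (0.93, 0.61 and 0.31). Il18rap, an interleukin 18 receptor chain (0.80, 0.51 and 0.37), Slfn8 (0.85, 0.76 and 1.58) and Cflar, an inhibitor of caspase 8 (0.20, 0.17 and 0.13), completed the group. Cflar was below sgControl in sg1 and sg2 after rescaling to the total (-0.011 and -0.035). Slfn8 belongs to a cluster of closely related genes and Tnfrsf23 has a close paralogue, so that reads may have been shared between copies. The list used for genes induced by interferon held 54 symbols and is incomplete, since Herc6 is not on it. It matched 5 genes of the table (Ddx58, Ifit2, Oasl1, Rsad2 and Trim30a). None of these 5 was a member, and none was below sgControl in all 9 KO libraries. The median of their mean differences from sgControl was -0.70 (log2), and all 5 were called apart among the lines.

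Genes of the p53 circuit, DNA damage and protein stress numbered 6. Mdm2, the ubiquitin ligase that degrades p53, was at 2466, 2599 and 2447 in sgControl, 2751, 2776 and 2899 in sg1, 2914, 2959 and 2936 in sg2 and 3127, 2998 and 3100.4 in sg3. Its lines were called apart only just (adjusted p = 0.047), with sg3 highest. The call was lost without sgControl replicate 1 or 3, sg1 replicate 1 or 2, any sg2 library, or sg3 replicate 1 or 3 (adjusted p from 0.056 to 0.15), and with limma without trend and robust estimates (adjusted p = 0.055). Polk, a translesion DNA polymerase, was at 621, 617 and 654 in sgControl, 780.5, 675 and 741 in sg1, 763, 728 and 789 in sg2 and 833, 711 and 800.2 in sg3, without a called difference (adjusted p = 0.49 among lines, and 0.024 after median-ratio rescaling). Atf6, the membrane-bound sensor and transcription factor of the unfolded protein response, was at 4459.6, 4502 and 4476 in sgControl, 4803, 4742 and 4915 in sg1, 4915, 5081 and 5205 in sg2 and 4956, 4963 and 5131 in sg3. The differences from sgControl were 0.11, 0.18 and 0.16 (log2), and it was called apart after median-ratio rescaling (adjusted p = 7.3e-04). Hipk2, a kinase of p53 (0.75, 0.51 and 0.49), and Sesn3, a sestrin (0.68, 0.27 and 0.39), were highest in sg1, and Dnajb2 (0.31, 0.22 and 0.33) was not called apart. Of the 5 genes of the p53 target list in the table, Eda2r, Mdm2 and Polk were members, a description to be read beside the 14.8% of the table, and none of the 3 met the rule after either rescaling. The other two, Ccng1 (0.086, 0.38 and 0.39) and Zmat3 (-0.025, 0.50 and 0.47), were above sgControl in sg2 and sg3 and near it in sg1. Atf6 and Mdm2 were below sgControl in a line after rescaling to the total.

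Lipid uptake, storage and signalling was represented by 14 genes with a median difference of 0.43 (log2). Vldlr, the very low density lipoprotein receptor, was at 352, 283 and 400.4 in sgControl, 1181, 1105 and 1207 in sg1, 796, 779.7 and 840.1 in sg2 and 741, 864 and 797 in sg3. The lowest KO library was at 741 and the highest control at 400.4, with sg1 highest (3.37, 2.33 and 2.32-fold; sg1 over sg2 by 0.53 log2, adjusted p = 1.3e-04) and sg3 minus sg2 at -0.0097 (95% interval -0.22 to 0.20, log2). Mfsd2a, a lysophosphatidylcholine transporter, was low, at 11.8, 1.81 and 7.63 in sgControl, 27.6, 12.6 and 12.2 in sg1, 31.3, 26.9 and 34.9 in sg2 and 16.3, 25.99 and 17.3 in sg3. The controls alone spread widely and nearly reached the lowest sg1 library, and the lines were not called apart (adjusted p = 0.20). Pparg, the nuclear receptor of fat storage, differed from sgControl by 1.60, 0.98 and 1.42 (log2), and Cln8, a cargo receptor of lysosomal enzymes, by 0.57, 0.69 and 0.60. The further lipoprotein receptors Lrp1 (0.40, 0.091 and 0.24) and Apobr (0.51, 0.10 and 0.23) met the rule only narrowly. Soat1, which esterifies cholesterol (0.21, 0.53 and 0.50), and Echdc2 (0.26, 0.54 and 0.64) were lowest in sg1, whereas St8sia1, the ganglioside GD3 synthase, was highest in sg2 (0.20, 0.80 and 0.32). Spns2, the exporter of sphingosine 1-phosphate, was not called apart in sg1 and sg2 and was lower in sg3 (0.46, 0.47 and 0.22). Inpp4b, St3gal5, Ttc39b and Pip4k2a lay between 0.21 and 0.50 in their mean difference. Apobr, Lrp1, Pip4k2a, St3gal5, St8sia1 and Ttc39b were below sgControl in a line after rescaling to the total.

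Among the 15 receptors, kinases and other signalling genes, Neurl1b had the widest margin of all 115 members. Neurl1b, a ubiquitin ligase that acts on Notch ligands, was at 176, 163 and 188 in sgControl, 612, 631 and 552 in sg1, 451, 545 and 528 in sg2 and 758, 835 and 799 in sg3. The lowest KO library was 1.26 (log2) above the highest control. It was 3.41, 2.89 and 4.54-fold over sgControl in sg1, sg2 and sg3, and each pair of lines was apart (sg3 minus sg2 0.65 log2, 95% interval 0.47 to 0.83, adjusted p = 7.8e-06). Notch1, the receptor of that pathway, was at 1233, 1029 and 1277 in sgControl, 1493, 1593 and 1541 in sg1, 1482, 1501 and 1534 in sg2 and 1419, 1614 and 1344 in sg3, with the 3 lines overlapping and not called apart (adjusted p = 0.59). Of the 7 listed Wnt, Notch and Hedgehog genes in the table, Notch1 was the only member, to be read beside the 14.8% of the table. Fzd6 and Fzd7 were below sgControl in all 9 libraries, as were 158 of the 982 genes. Fzd8, Lrp6, Notch4 and Sufu were neither. Of these, Notch4 differed from sgControl by 2.51, 0.89 and -0.21 in sg1, sg2 and sg3 (adjusted p = 1.4e-10 among lines, limma). Adora1, the adenosine A1 receptor, differed from sgControl by 1.00, 0.98 and 1.38 and was highest in sg3, and Ramp3, a partner of the calcitonin-like receptor, by 1.53, 1.14 and 0.87. The Src family kinase Fyn (0.89, 0.53 and 0.59), the focal adhesion kinase relative Ptk2b (0.57, 0.33 and 0.27), Prkx (0.56, 0.24 and 0.17), Mast4 (0.37, 0.19 and 0.16) and Pxk (0.35, 0.11 and 0.15) were each called higher in sg1 than in both other lines. Gnb4, Tgfbr3, Fer, Map3k2 and Ptpre had mean differences of 0.19 to 0.32. Map3k2, Mast4 and Pxk were below sgControl in a line after rescaling to the total.

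Chromatin, transcription and cell cycle genes numbered 10. Mdfi, an inhibitor of MyoD family transcription factors, was at 19.6, 19.05 and 15.3 in sgControl, 99.95, 112 and 125 in sg1, 48.1, 53.8 and 51.4 in sg2 and 29.1, 36.6 and 21.9 in sg3. The 3 lines formed 3 levels without overlap, from 6-fold over control in sg1 to below 2-fold in sg3 (6.25, 2.84 and 1.62-fold), the widest range over lines of any member (1.93 log2). Pogk, a KRAB domain protein derived from a pogo transposase, was at 452, 408 and 418 in sgControl, 459, 526 and 483 in sg1, 961, 966 and 968 in sg2 and 515, 525 and 539 in sg3. Its sg2 libraries were at about 2-fold and the others only slightly above control (sg3 minus sg2 -0.87 log2, 95% interval -1.02 to -0.73, adjusted p = 8.7e-09), and after rescaling to the total it was below sgControl in a line. Foxm1, a transcription factor of mitotic genes, was at 3373, 3402 and 3051 in sgControl, 4176, 4274 and 3926 in sg1, 4032, 4077 and 3793 in sg2 and 3513, 3789.5 and 3569 in sg3. It was lowest in sg3 (adjusted p = 0.016 among lines), a difference not called after either rescaling (adjusted p = 0.27 and 0.75), nor without sg3 replicate 1 or without sg3 replicate 3 (adjusted p = 0.059 for each). Of the 69 genes on the cell cycle list 4 were in the table. Foxm1 was the only member among them, to be read beside the 14.8% of the table. The other members of this role group were not on that list. Hist2h3c1 (0.94, 0.59 and 0.64) encodes a histone H3 with near-identical copies, so its reads may come from several genes. Ccno (0.85, 0.90 and 0.41) and the remodeller Chd5 (0.95, 0.41 and 0.50) were above 1.5-fold in the mean of the lines. Mad1l1, Kat2b, Tshz1 and Med14 lay between 0.13 and 0.19, and these and Pogk were the 5 of the group that were below sgControl in a line after rescaling to the total.

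The 8 genes of synapse, membrane traffic and channels included the largest difference of all. Mctp1, a membrane protein with calcium-binding C2 domains, was at 2.95, 3.63 and 5.72 in sgControl, 35.1, 34.9 and 50.8 in sg1, 17.8, 11.9 and 15.7 in sg2 and 18.6, 15.4 and 10.9 in sg3. The sg1 libraries were above all others, and sg2 and sg3 overlapped (9.83, 3.69 and 3.66-fold; sg1 over sg2 adjusted p = 0.0017). Because the controls held only 2.95 to 5.72 normalised counts, the fold is imprecise. Mcub, the dominant-negative subunit of the mitochondrial calcium uniporter, was at 19.6, 31.7 and 20.02 in sgControl, 131, 125 and 130.4 in sg1, 53.3, 61.7 and 56.6 in sg2 and 43.1, 46.2 and 40.1 in sg3. Here too sg1 was apart from the rest, by 1.16 (log2, 95% interval 0.75 to 1.56) over sg2 and 1.56 (1.15 to 1.96) over sg3. Dynamin 1, the endocytic GTPase encoded by Dnm1, had 1.71, 0.33 and 0.88 in sg1, sg2 and sg3, all pairs being called. Synapsin 1 (Syn1, 0.83, 0.42 and 0.60), the anion channel subunit Lrrc8c (0.42, 0.30 and 0.35) and Mmgt2 (0.24, 0.21 and 0.20) were not called apart, Tmed8 was highest in sg3 (0.16, 0.45 and 0.69), and Reep3 was only slightly above control (0.21, 0.12 and 0.093). After rescaling to the total Tmed8 was below sgControl in sg1 (-0.048) and Reep3 in all 3 lines (-0.0044, -0.083 and -0.0090).

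The last 8 protein-coding members were enzymes and other proteins. Trim2, a ubiquitin ligase known from neurons, was at 505, 505 and 519.6 in sgControl, 856, 795 and 892 in sg1, 613, 632 and 722 in sg2 and 694, 644 and 711 in sg3. It was highest in sg1 (adjusted p = 3.7e-04 among lines). Rnf227, a RING finger protein, had the larger difference (1.56, 1.55 and 0.92), with sg3 below the other lines. Gch1, the first enzyme of tetrahydrobiopterin synthesis (0.72, 0.37 and 0.29), and Uxs1, which makes UDP-xylose (0.36, 0.19 and 0.14), were highest in sg1. Tmtc4, Eogt and Rcbtb1 had mean differences of 0.18 to 0.22. These and Uxs1 were the 4 of the group that were below sgControl in a line after rescaling to the total. Amn1 lies next to Resf1 on chromosome 6, with no protein-coding gene between them, and was at 343, 331 and 347 in sgControl, 452, 359.8 and 476 in sg1, 452, 443 and 437 in sg2 and 561, 411 and 464 in sg3. The lines were not called apart (adjusted p = 0.41).

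Of the 4 noncoding transcripts, AC120164.1 had a margin second only to that of Neurl1b. It was at 19.6, 18.1 and 12.4 in sgControl, 77.6, 43.6 and 58.0 in sg1, 147, 101 and 97.6 in sg2 and 58.2, 49.1 and 78.5 in sg3. The sg2 libraries were highest (sg1 minus sg2 -0.95 log2, adjusted p = 0.0031), and sg1 and sg3 overlapped. Airn, the antisense transcript that silences the paternal Igf2r gene, was at 149, 151 and 136 in sgControl, 209, 169 and 196 in sg1, 202, 239 and 222 in sg2 and 356, 171 and 216 in sg3. Replicate 1 of sg3 was far above its other dishes, and the lines were not called apart (adjusted p = 0.30), though they were without sg3 replicate 2 (0.026). Whether strand was used in counting is not given in the sources used here, so reads of Airn cannot be told apart from those of genes that it overlaps. AC166110.4 (0.87, 0.67 and 0.36) and AU020206 (0.13, 0.49 and 0.31) had smaller differences and did not meet the rule after either rescaling. AU020206 was then below sgControl in sg1 (-0.020 after median-ratio rescaling and -0.079 after rescaling to the total).

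**Figure D3:**
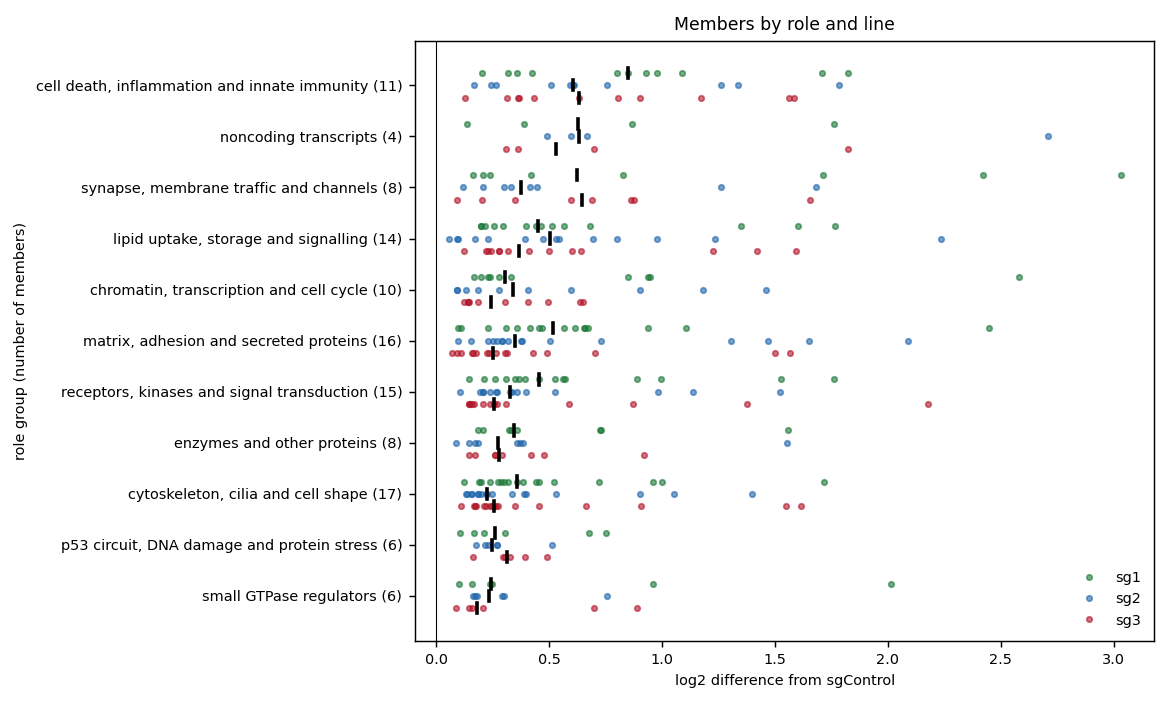
Log2 difference from sgControl of the 115 genes by role group and line, each point 1 gene and each black bar the median of a line in the group. Cell death, inflammation and innate immunity has the highest median over the lines (0.73), small GTPase regulators the lowest (0.21).

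Differences among the lines were tested with limma over all 982 genes. Of the 115 genes, 71 differed among sg1, sg2 and sg3 at an adjusted p of at most 0.05, which is 61.7%, compared with 75.3% of the table. The other 44 did not pass. The range over lines had a median of 0.31 (log2), against 0.45 for the table, and the rule itself limits how far a line can lie below the others. The group of 40 genes without any called pair (34.8%, against 21.9% of the table) included Filip1, Cln8, Cd28, Macf1, Notch1, Dock1, Dock5 and Atf6.

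Between pairs of lines, sg1 was most often the higher one. It exceeded sg2 in 44 genes (38.3%; 40.9% of the table) and was below it in 15 (13.04%; 26.7% of the table). It exceeded sg3 in 49 (42.6%; 42.5% of the table) and was below it in 11 (9.57%; 23.2% of the table). Fewer genes were called between sg2 and sg3: sg3 was above sg2 in 8 genes (6.96%; 13.4% of the table) and below in 16 (13.9%; 17.1% of the table). The shares in which sg1 was higher were near those of the table. Nothing is read from the smaller shares in which it was lower, since the rule removed genes in which sg1 was near or below control. These splits depended on the scaling. After median-ratio rescaling sg1 was above sg2 in 29 and below in 25, and above sg3 in 24 and below in 30, and sg3 was above sg2 in 11 and below in 11. After rescaling to the total the corresponding numbers were 35 and 13, 22 and 15, and 8 and 6. Over the table, 701, 690 and 294 of the 982 genes were called in these pairs, in either direction, after median-ratio rescaling. After rescaling to the total they were 592, 607 and 255.

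In 37 genes sg1 was called above both other lines (32.2%, against 34.7% of the table), and in 32 of these sg2 and sg3 were not called apart, as in Casp1, Vldlr, Arhgef10, Mcub and Itgb1. In 7 genes sg1 was called below both (Eda2r, Evl, Ddr2, Cfap20, Echdc2, Tmed8 and Soat1; 6.09%, against 18.6%). Line sg2 was above both others in 6 genes (AC120164.1, Pappa2, Pogk, St8sia1, Itgav and Asap2; 5.22%, against 6.31% of the table) and below both in 3 (Neurl1b, Dnm1 and Arhgap27; 2.61%, against 9.37%). Line sg3 was above both in 5 (Neurl1b, Adora1, Slfn8, Ddr2 and Tmed8; 4.35%, against 4.99%) and below both in 10 (8.70%, against 11.71%), among them Mcpt8, Mdfi, Pappa2, Tnfrsf23, Palld and Plau. By level alone sg1 was the highest line in 68 of the 115 genes, sg2 in 23 and sg3 in 24, compared with 482, 281 and 219 of the 982 genes of the table. Among the 115 these numbers were 49, 29 and 37 after median-ratio rescaling and 54, 16 and 45 after rescaling to the total.

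**Figure D4:**
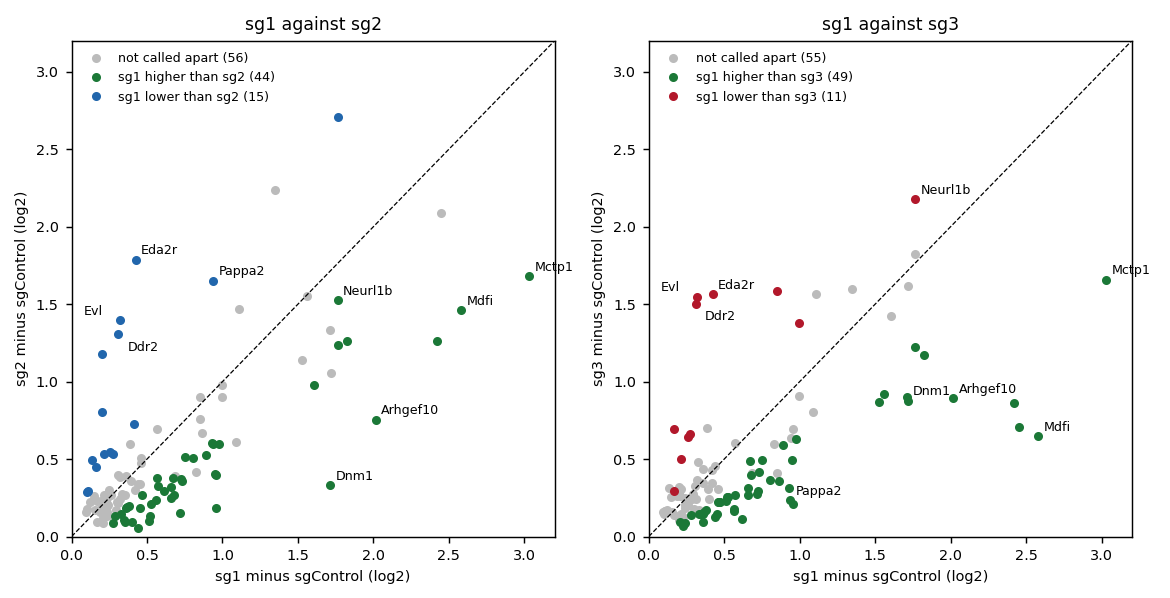
Log2 difference from sgControl of each of the 115 genes in sg1 (horizontal) against sg2 (left) or sg3 (right), coloured by whether the lines were called apart, with the dashed line marking equality. Both lines share the sgControl libraries, so the position along the diagonal is not independent; 44 and 49 genes are below the diagonal as called higher in sg1, and Eda2r, Evl and Ddr2 are far above it in both panels.

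On the chromosomes, members were spread unevenly. Chromosome 1 held 18 of them, 41.9% of its 43 genes open to the rule, followed by chromosome 14 with 9 of 28 (32.1%), the X chromosome with 6 of 21 (28.6%) and chromosome 4 with 7 of 34 (20.6%). Chromosome 16 held 1 of 23 (4.35%). Genes of chromosome 1 open to the rule had median differences from sgControl of 0.46, 0.19 and 0.17 (log2, lines sg1, sg2 and sg3), and 4 of the 43 were below sgControl in all 9 libraries. The share on chromosome 1 was 23.3% after median-ratio rescaling (10 genes) and 9.30% after rescaling to the total (4 genes), the highest of any chromosome under each. The order of the others did not hold: after median-ratio rescaling and after rescaling to the total the share was 17.9% and 3.57% on chromosome 14, 14.3% and 0% on the X chromosome and 5.88% and 0% on chromosome 4, and chromosome 19 came second after rescaling to the total (8.33%). The 18 genes included Adora1, Atf6, Cd28, Cflar, Col6a3, Ddr2, Dnajb2, Il18rap, Lypd1, Map2, Pappa2, Pogk, Ptgs2, Sdccag8, Soat1 and Uxs1. Copy number was not measured. On chromosome 8, the members Cln8 and Arhgef10 were adjacent among protein-coding genes. Arhgef10 was highest in sg1, and the lines of Cln8 were not called apart (adjusted p = 0.55 among lines).

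**Figure D5:**
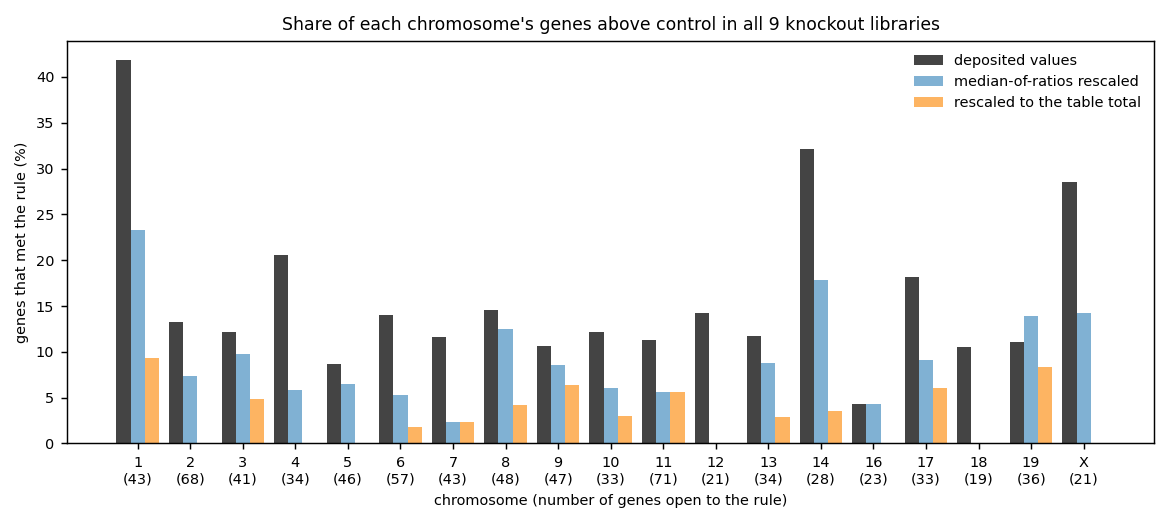
Percent of the genes open to the rule on each chromosome that met it, with the deposited values (grey) and after either rescaling (blue and orange), and the number of open genes below each chromosome. Chromosome 1 is highest under each scaling, at 41.9%, 23.3% and 9.30%, on small numbers of genes.

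The members had long transcripts. Their longest annotated transcript had a median of 4835 nt, compared with 3630 nt over the table and 2979 nt for the 113 genes below sgControl in all 9 libraries, and their GC content had a median of 47.7%, compared with 50.7% and 52.4%. Mean levels were 154 normalised counts per kb in the median, below the 191 of the table and the 282 of the genes below control. Over the 972 genes with a length, the difference from sgControl correlated with length at a Spearman rho of 0.087, 0.17 and 0.23 in lines sg1, sg2 and sg3, and with GC content at -0.13, -0.21 and -0.28. Libraries of 1 line also differed in this way: the deviation of sg3 replicate 1 from its line correlated with length at 0.38 and that of sg3 replicate 2 with GC content at 0.49. These correlations are across genes that share libraries and are given as descriptions. The part of length or GC content in the membership of a gene was not tested.

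Lists of pathway genes, which were drawn up with earlier results of these data known, placed few members in any 1 pathway. Among the 11 mesenchymal transition genes of the table, 5 were members (Col6a3, Itgav, Itgb1, Plau and Tpm2) and none was below control in all 9 libraries. Of these 5, Col6a3 and Plau met the rule after median-ratio rescaling and Col6a3 after rescaling to the total. Of the 17 regulators of small GTPases on these lists 5 were members and Arhgef6 was below control, and of the 5 Arhgef10 alone met the rule after either rescaling. Of the 122 genes on the list of ubiquitin ligases and deubiquitinases 7 were in the table. Of these, 3 were members (Herc6, Trim2 and Trim56) and Fbxo17 and Usp19 were below. Trim2 and Trim56 met the rule after median-ratio rescaling and none of the 3 after rescaling to the total. The list is incomplete: the ubiquitin ligase genes Mdm2 and Neurl1b were members but not on it. Neurl1b met the rule after either rescaling and Mdm2 after neither. Of 14 genes of the integrated stress and unfolded protein response, Atf6 and Vldlr were members, while Hyou1, Pdia4, Pdia6, Sdf2l1 and Syvn1, which encode chaperones and degradation factors of the endoplasmic reticulum, were below. Vldlr met the rule after either rescaling and Atf6 after neither. A single member came from the 3 YAP and TEAD targets (Dock5), the 3 NF-kB genes (Ptgs2), the 2 imprinted genes (Airn) and the 6 receptor tyrosine kinase and MAPK feedback genes (Ddr2). Ptgs2, Airn and Ddr2 met the rule after median-ratio rescaling and none of the 4 after rescaling to the total. No member came from the 2 MHC class I, 3 sterol and fatty acid synthesis, 6 lysosome and autophagy, 3 hypoxia, 2 germline and 1 retroelement silencing genes in the table. All these counts use the contrast on which the genes were selected and are only a description. Counts of members are read against the 14.8% of the table. Counts of genes below control are read against the 158 of the 982 genes that were below in all 9 libraries.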

How the data were processed

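RNA from 12 dishes of 6DT1 cells was sequenced as stranded total RNA libraries. The authors deposited a normalised signal: a gene's estimated count over the size factor of its library, as judged from the values (of those under 100 estimated reads, 79.2% to 84.6% lay within 0.05 reads of a whole number). Whole reads could not be recovered for all values and no count model was used. Per the labels the authors used Partek, STAR 2.7.8a and DESeq2. The build, annotation and counter behind the mouse table are not given in the sources used here. A size factor moves all genes of a library together, and estimates can share reads between similar genes. Depth is unknown, no interval for counting error is given, and 0 columns lacked a sample.

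The members and all gene lists were chosen with earlier results of these data known. Members were found by the rule given in the report on the deposited values. Differences among lines were tested with limma 3.58.1 in R 4.3.3 on log2(value + 1), fitting 4 group means to all 12 libraries at once, with empirical Bayes estimates that were robust and followed the intensity trend. Two-sided p-values were corrected over all 982 genes (Benjamini-Hochberg) and called at 0.05. The design foresaw this test, as a count test was not valid. On that scale the fold changes of low genes are understated. Values in every library are given for the 10 members with the largest mean difference from sgControl, the 5 with the smallest p among lines, the 5 largest not called among lines, the 5 highest per kb of transcript and members in any gene list; some genes are not reported here. Other members named were grouped by role after their values were seen. Symbols, chromosomes, gene order, transcript lengths and GC content came from GENCODE M21 (GRCm38) and promoters from RefSeq (GRCm38.p6); the build of the deposited values may differ. Simulated data with known changes were recovered by the same script. The simulation used the same spread setting for all genes, equal library sizes and changes in sg1 only. It therefore does not speak to the scaling or to deviations shared between libraries.

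Same-numbered libraries had correlated deviations above 0.1 in 11 of 18 pairs: 6 of 6 between sgControl and sg1 or sg2, 0 of 3 between sgControl and sg3 and 5 of 9 among the KO lines, the lines tested against each other, so the numbers were not taken to pair them. Alternatives were 2 rescalings, pseudocounts of 0.5 and 5, a filter at a mean of 50, limma without trend and robust estimates, a test against a 1.2-fold change, a replicate block and leaving out each library.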

Additional observations from a re-analysis of the deposited data

Results flagged for a closer look

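The following values were singled out because the 3 KO lines, which share 1 contrast with sgControl, differed from each other by a test of that difference (limma, adjusted p of at most 0.05). This held for 71 of the 115 genes (61.7%) and for 739 of the 982 of the table (75.3%). No cause was tested. Groups of 3 libraries are too small for the gap test of a single library, which needs at least 4, so that test was not run.

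Among genes given in every library, the range over the lines (log2) was 1.93 in Mdfi, 1.75 in Mcpt8, 1.56 in Mcub, 1.42 in Pappa2, 1.38 in Mctp1, 1.36 in Eda2r, 1.26 in Arhgef10, 1.23 in Evl and 1.19 in Ddr2. In Mdfi, Mcub, Mctp1 and Arhgef10 line sg1 was highest, in Pappa2 and Eda2r sg2, and in Evl and Ddr2 sg3. It was 0.981 in Pogk, 0.948 in AC120164.1, 0.777 in Arhgap27, 0.653 in Neurl1b, 0.653 in Casp1, 0.565 in Tpm2, 0.541 in Vldlr and 0.503 in Plau. Smaller ranges were called in Ptgs2 (0.383), Trim2 (0.372), Col6a3 (0.29), Itgb1 (0.264), Angptl2 (0.245), Asap2 (0.188), Foxm1 (0.187), Itgav (0.183) and Mdm2 (0.131). Of these 26 genes, Ptgs2, Col6a3, Angptl2, Asap2, Foxm1, Itgav and Mdm2 lost the call under at least 1 alternative.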

How the results depend on the processing

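The number of members was 115 with the deposited scaling, 64 after median-ratio rescaling, 25 after rescaling to the table total, 106 with a filter at a mean of 50, and 117 to 158 when 1 library was left out (158 without sgControl replicate 3), since fewer values then have to be met. The number of members differing among the lines was 71 (51 to 77 over all alternatives that keep 12 libraries; 62 to 71 without 1 library). Between sg1 and sg2 it was 59, and 17 against a 1.2-fold threshold; between sg1 and sg3 60, 37 after rescaling to the total and 19 against 1.2-fold; between sg3 and sg2 24, 14 after rescaling to the total and 4 against 1.2-fold. Leaving out 1 library gave 50 to 60, 54 to 61 and 13 to 25 for these pairs, the lowest of the last (13) without sg2 replicate 1. The median difference from sgControl in sg1 (0.42) was 0.27 after median-ratio rescaling and 0.21 after rescaling to the total, that in sg2 (0.34) was 0.13 after rescaling to the total and that in sg3 (0.31) was 0.20; without 1 library they were 0.42 to 0.44, 0.31 to 0.36 and 0.29 to 0.32. Other pseudocounts, the filter and the simpler spread model left all these counts within 1.5 times. Counts over the whole table moved as well. Of its 982 genes 739 differed among the lines, and 686 after rescaling to the total. Between sg1 and sg2, sg1 and sg3, and sg3 and sg2 it was 664, 645 and 300 genes. These numbers were 592, 607 and 255 after rescaling to the total, and 361, 381 and 169 against 1.2-fold.

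With a replicate block 77 members differed among lines, and 63, 64 and 31 between sg1 and sg2, sg1 and sg3, and sg3 and sg2. Over the table these counts were 775, 697, 681 and 342 of the 982 genes. The correlation of deviations between same-numbered libraries passed 0.1 in 3 of 3 pairs for sgControl with sg1 (0.20 to 0.24) and for sgControl with sg2 (0.12 to 0.16), but in 0 of 3 for sgControl with sg3, 2 of 3 for sg1 with sg2, 2 of 3 for sg1 with sg3 and 1 of 3 for sg2 with sg3. The numbers thus tracked shared deviations in part of the libraries and did not meet the bar for pairing in any comparison that was tested.

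Among the 38 members picked by the rule for values in every library (Macf1 and Amn1, described besides, are not among them), 692 of the alternative tests kept their side of the threshold, 20 in 7 genes lost it and 6 in 6 genes (Airn, Atf6, Dock1, Dock5, Polk and Trim56) gained it. Unknown depth limits the members of few reads (among them Mctp1, Mcpt8, Mfsd2a, Lypd1 and Slfn8); 106 of the 115 had a mean of at least 50.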

Other observations

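Which library held the lowest KO value of a member differed between lines: it was a library of sg1 in 26 genes, of sg2 in 40 and of sg3 in 49. Within the lines, the highest library was replicate 1 in 44 of 115 members for sg3, compared with 228 of 982 genes of the table, and replicate 1 in 21 for sg2, compared with 328. All 3 libraries of sgControl were the highest control for some members, replicate 1 in 26, replicate 2 in 42 and replicate 3 in 47.

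The order of the lines was sg1, sg2, sg3 in 37 members, sg1, sg3, sg2 in 31, sg2, sg3, sg1 in 14, sg3, sg2, sg1 in 14, sg3, sg1, sg2 in 10 and sg2, sg1, sg3 in 9, compared with 263, 219, 194, 149, 70 and 87 of the 982 genes of the table. Within the 115 genes the difference from sgControl and transcript length correlated negatively (Spearman rho -0.33 in sg1, -0.16 in sg2 and -0.17 in sg3, across genes), opposite in sign to the table.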
